A study of Mus musculus with 12 samples.

Results

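The Hedgehog pathway was followed through 10 genes in cultured mouse neural progenitor cells (mNPCs), a population dissected from the hippocampus of newborn (P0) pups and grown with FGF-2, EGF and heparin. The genes were chosen by name and cover the ligand *Shh*, the receptors *Ptch1* and *Hhip*, the coreceptors *Boc*, *Cdon* and *Gas1*, the transducer *Smo*, the inhibitor *Sufu* and the transcription factors *Gli1* and *Gli2*. All 10 were found among the 18911 genes measured, and all 10 passed the filter on low counts that left 17076 genes for testing. Poly(A) RNA was sequenced from 4 genotypes with 3 libraries each. Kmt2a+/+ is the wild type. Kmt2a+/LSL carries 1 allele of *Kmt2a*, which encodes a histone H3K4 methyltransferase, interrupted in intron 1 by a stop cassette between loxP sites (LSL). Nes-Cre+/- Kmt2a+/+ carries a Cre recombinase driven by nestin sequences and no cassette. Nes-Cre+/- Kmt2a+/LSL carries both, so that the stop cassette can be removed in cells of the neural lineage. The study compared the cassette with the wild type to see what loss of 1 allele changes, and the cassette with and without Cre to see what its removal restores. The labels number the libraries of a genotype without tying them to separate pups, so the p-values below measure the spread between these cultures, which may in part be technical.

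Hedgehog ligands are secreted proteins that pattern the neural tube and forebrain and keep progenitors of the postnatal brain dividing. Without ligand, the receptor PTCH1 holds the membrane protein SMO inactive, SUFU retains the GLI proteins, and GLI2 and GLI3 are processed toward repressors. Ligand bound to PTCH1, with BOC, CDON or GAS1 as coreceptors, releases SMO, and full-length GLI proteins then turn on targets that include *Gli1*, *Ptch1* and *Hhip*. *Gli1* is the usual readout of the active pathway, while PTCH1 and HHIP bind ligand and limit its reach.

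Because *Ptch1* and *Hhip* are both receptors and targets, the 250 bases before their starts were read from RefSeq (GRCm38.p6) together with those of *Gli2*. RefSeq promoters were matched for 7 of the 10 genes, all but *Shh*, *Boc* and *Gli1*. The windows are chr13:63565736-63565985 for *Ptch1*, chr8:80058009-80058258 for *Hhip* and chr1:119053620-119053869 for *Gli2*, all on the minus strand and written 5′ to 3′. The *Ptch1* window lies inside the annotated span of the gene, before one of its several starts, and overlaps none of its annotated exons. Capitals mark the GC box, GGGCGG or its reverse complement CCGCCC, and the core of the GLI binding motif, ACCACCC or its reverse complement GGGTGGT.
Ptch1: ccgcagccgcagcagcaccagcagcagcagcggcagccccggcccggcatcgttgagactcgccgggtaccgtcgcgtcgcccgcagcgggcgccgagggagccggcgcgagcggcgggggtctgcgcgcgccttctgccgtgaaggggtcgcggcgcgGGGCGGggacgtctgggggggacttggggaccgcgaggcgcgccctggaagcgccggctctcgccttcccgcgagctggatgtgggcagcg
Hhip: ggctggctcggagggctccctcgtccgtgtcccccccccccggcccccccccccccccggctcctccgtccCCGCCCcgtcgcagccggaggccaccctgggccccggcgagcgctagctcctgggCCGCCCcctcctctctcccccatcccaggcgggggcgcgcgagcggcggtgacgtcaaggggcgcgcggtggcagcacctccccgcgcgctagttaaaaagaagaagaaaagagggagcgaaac
Gli2: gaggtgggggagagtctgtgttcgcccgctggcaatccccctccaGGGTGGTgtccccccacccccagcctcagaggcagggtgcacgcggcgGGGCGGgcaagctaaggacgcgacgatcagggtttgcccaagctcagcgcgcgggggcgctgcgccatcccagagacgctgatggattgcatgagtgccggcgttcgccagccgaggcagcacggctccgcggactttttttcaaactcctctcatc
The full GLI consensus, GACCACCCA or TGGGTGGTC, was in none of the 7 windows and in 0.225% of the 32851 RefSeq promoter windows of the same length. The core, which the consensus contains, was found only in *Gli2*, starting 205 bases before the gene, against 3.92% of all windows. The GC box was present in *Ptch1*, *Hhip*, *Gli2*, *Gas1* and *Sufu*, against 32.7% of all windows. GC content was 78.4% before *Ptch1*, 76% before *Hhip* and 67.2% before *Gli2*, against a median of 52.4% over all windows. A match describes letters in a window, and no match describes only their absence there.

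Library totals ran from 18280008 to 28596919 counts, so that 3 counts stood for 0.105 to 0.164 CPM (counts scaled to a library of standard size). *Kmt2a* itself followed the labels, and its normalized counts were 3972 to 3991 in the Kmt2a+/LSL libraries and 6205 to 7427 in all others. With Kmt2a+/+ as reference, its log2 fold change in Kmt2a+/LSL was -0.80 (SE 0.13), with an edgeR adjusted p of 0.281. The edgeR adjusted p became 0.0437 without Kmt2a+/+ replicate 1. With all 12 libraries the adjusted p was 6.1e-18 in the DESeq2 Wald test and 0.018 in limma-voom with quality weights. The edgeR test on 12 libraries thus did not call *Kmt2a*, which limits what its counts of 0 below can show. Kmt2a+/+ replicate 1 stood apart from its group. Its median correlation with its replicates was 0.903, against 0.939 to 0.984 in the other libraries, and 13.2% of its counts lay in 10 genes. Nes-Cre+/- Kmt2a+/LSL replicate 1 had 10.7% of its counts in 10 genes, and the remaining libraries 6.19% to 7.70%. All 8 progenitor markers were at 1 CPM or more in every library, as were all 5 astrocyte markers, 5 of 6 of the oligodendrocyte lineage and 3 of 6 of neurons. The 5 microglia markers, Tmem119 and Cx3cr1 among them, were under 1 CPM in every library, and the summed level was at most 3.1 CPM for the endothelial list, of which *Cldn5* was not measured, and at most 4.5 CPM for mesenchyme and meninges. Markers of the dorsal telencephalon summed to 109 to 217 CPM, those of the ventral telencephalon, without *Dlx5*, to 0.42 to 5.3 CPM, those of ependyma to 3.9 CPM in Kmt2a+/+ replicate 1 and 13.8 to 34.8 CPM elsewhere, and the neuronal list to 1012 to 1901 CPM. In Kmt2a+/+ replicate 1 the progenitor markers summed to 12896 CPM, against 5567 to 8176 in the other 11 libraries, and the oligodendrocyte lineage markers to 804 CPM, against 2753 to 4443. In bulk RNA, fewer cells of a type and less RNA per cell cannot be told apart.

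The cells held the receiving and transducing parts of the pathway at readily measured levels and very little ligand or *Gli1* mRNA. Per length, as CPM per kb of merged exons averaged over the 12 libraries, *Gas1* had the highest level at 40.6 ± 10.0 (SD, n = 12), followed by *Smo* at 28.9 ± 6.66. *Cdon* at 9.52 ± 2.96, *Sufu* at 9.33 ± 1.78, *Boc* at 8.67 ± 2.05 and *Ptch1* at 7.21 ± 2.30 formed a middle group. *Gli2* followed at 3.29 ± 0.99 and *Hhip* at 0.913 ± 0.357. *Shh* at 0.178 ± 0.174 and *Gli1* at 0.0746 ± 0.0583 came last. Of the genes tested that had an annotated exon length, 93.8% lay below *Gas1*, 49.4% below *Gli2*, 20.4% below *Shh* and 12.0% below *Gli1*.

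**Figure D1:**
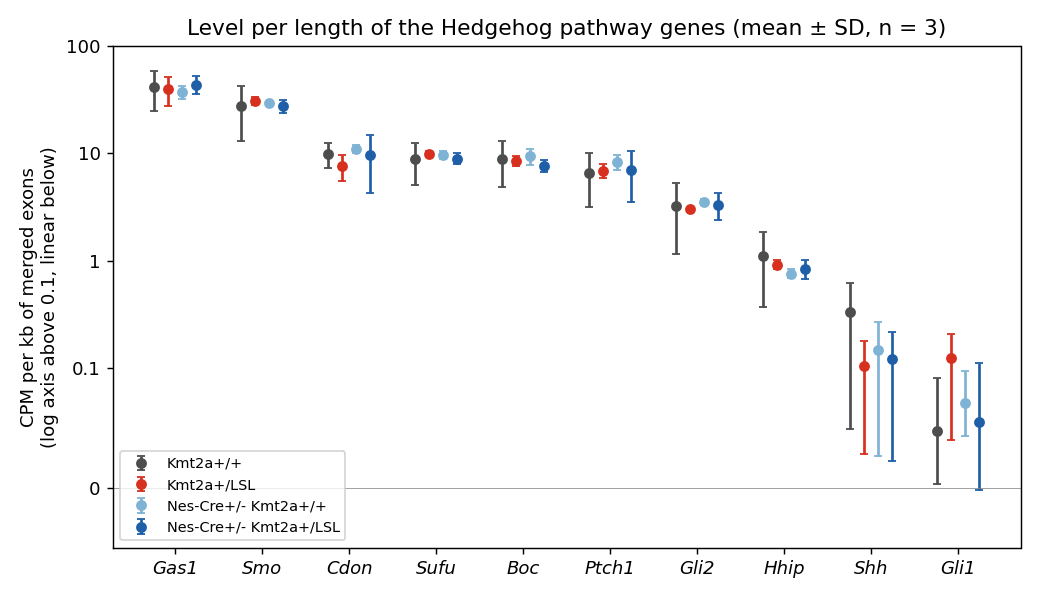
Level of each gene in CPM per kb of merged exons, on an axis that is logarithmic above 0.1 and linear below it, with 1 point per genotype (mean ± SD, n = 3). The levels fall from 40.6 for *Gas1* to 0.0746 for *Gli1* over the 12 libraries.

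Some neighbours in this order were not separated beyond their spread. *Gas1* was above *Smo* in 10 of 12 libraries, and the order of this pair turned when the longest transcript was used as the length. *Cdon* was above *Sufu* in 6 of 12 libraries and *Sufu* above *Boc* in 9 of 12, so the middle group had no firm order, and the longest transcript put *Sufu* first among them. *Boc* was above *Ptch1* in 11, and *Gli2* above *Hhip* in 11. With the longest transcript as the length, *Ptch1* at 9.85 lay above *Cdon* at 9.79 and *Boc* at 8.67. *Smo* was above *Cdon*, *Ptch1* above *Gli2*, and *Hhip* above *Shh* in all 12 libraries. *Shh* was above *Gli1* in 8 of 12.

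*Shh* (ENSMUSG00000002633, GRCm38 chr5:28456815-28467256, minus strand) encodes the ligand Sonic hedgehog. Its deposited counts were 2 to 32 per library. In normalized counts (each count scaled by its library's TMM-corrected size), it stood at 45.6, 9.52 and 14.0 in replicates 1 to 3 of the wild type (Kmt2a+/+), and at 7.18, 1.95 and 12.4 in those with the cassette alone (Kmt2a+/LSL). Cre alone (Nes-Cre+/- Kmt2a+/+) gave 19.5, 4.10 and 6.66, and both (Nes-Cre+/- Kmt2a+/LSL) gave 15.5, 7.18 and 2.18. Values of the genes below follow the same order of replicates. The highest value belonged to Kmt2a+/+ replicate 1, and the ranges of the 4 genotypes overlapped. Other genes share 25.5% of the 31-base words of its transcript, and the largest share of these is with an overlapping antisense gene that is not among the measured genes. The sources used here do not say whether strand was used in counting, so reads of both genes may be mixed.

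*Ptch1* (ENSMUSG00000021466, chr13:63508328-63573598, minus strand), the receptor that restrains SMO, had 949, 3243 and 2586 normalized counts in the wild type and 2119, 2162 and 2759 with the cassette. When Cre was present, the wild type had 2309, 3000 and 3143 and the cassette 1176, 3507 and 2458. The 2 lowest of the 12 values belonged to the first replicates of Kmt2a+/+ and of Nes-Cre+/- Kmt2a+/LSL, the other 10 libraries lay between 2119 and 3507, and every pair of genotypes overlapped. *Hhip* (ENSMUSG00000064325, chr8:79965851-80058006, minus strand), which encodes a membrane protein that binds and sequesters Hedgehog ligands, went the opposite way in the same libraries. The wild type had 430, 148 and 151 normalized counts, and the cassette without Cre 211, 180 and 213. With nestin-Cre the values were 176, 174 and 148 in the wild type and 225, 157 and 169 with the cassette. The 430 of Kmt2a+/+ replicate 1 was the highest, with all other libraries between 148 and 225.

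The 3 coreceptors did not share one pattern over libraries. *Boc* (ENSMUSG00000022687, chr16:44485049-44558897, minus strand) had 489, 1335 and 1039 normalized counts in the wild type and 804, 1003 and 925 with the cassette, and with Cre added 815, 1089 and 1133 in the wild type and 722, 915 and 826 with the cassette. Its 2 lowest values were again the first replicates of Kmt2a+/+ and Nes-Cre+/- Kmt2a+/LSL. *Cdon* (ENSMUSG00000038119, chr9:35421128-35507652, plus strand), an immunoglobulin superfamily protein related to BOC, had 1305, 2177 and 2000 normalized counts in the wild type, 1641, 1611 and 963 with the cassette alone, 2224, 1943 and 1937 with Cre alone, and 1163, 1255 and 2898 with both. Its lowest and highest values were the third replicates of the 2 genotypes with the cassette, and its spread was widest in Nes-Cre+/- Kmt2a+/LSL at 1772 ± 976 (SD, n = 3). *Gas1* (ENSMUSG00000052957, chr13:60174405-60177365, minus strand), which encodes a membrane-anchored coreceptor, had 4178, 1816 and 2808 normalized counts in the wild type, 2955, 1914 and 3614 with the cassette alone, 3075, 2554 and 2328 with Cre alone, and 3135, 3673 and 2508 with both. Both the highest and the lowest *Gas1* values were in Kmt2a+/+, and other genes share 18.2% of its 31-base words, the largest share with an overlapping lincRNA of the opposite strand that is not among the measured genes.

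Inside the cell, *Smo* and *Sufu* were steady apart from 1 or 2 libraries. *Smo* (ENSMUSG00000001761, chr6:29735503-29761365, plus strand), the transducer that PTCH1 restrains, had 1495, 4440 and 5206 normalized counts in the wild type and 4125, 3777 and 4527 with the cassette alone. Cre alone gave 4051, 3886 and 3971, which is 3970 ± 82.4 (SD, n = 3), and both together 3190, 4169 and 3830. A processed pseudogene that is also among the measured genes overlaps *Smo* on the same strand, and 3.11% of the 31-base words of *Smo* occur in other genes. *Sufu* (ENSMUSG00000025231, chr19:46396896-46488804, plus strand), whose product holds GLI proteins in the cytoplasm, had 858, 1815 and 2205 normalized counts in the wild type, 1732, 1770 and 1946 with the cassette alone, 1892, 1627 and 1841 with Cre alone, and 1434, 1808 and 1704 with both. For both genes the lowest library was Kmt2a+/+ replicate 1 and the next lowest Nes-Cre+/- Kmt2a+/LSL replicate 1, while the highest was Kmt2a+/+ replicate 3.

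*Gli1* (ENSMUSG00000025407, chr10:127329882-127341974, minus strand), the activator that is itself a target, had 0 to 24 deposited counts per library. Its normalized counts were 0, 10.5 and 6.58 in the wild type, 4.49, 15.6 and 24.8 with the cassette alone, 11.7, 5.12 and 8.57 with Cre alone, and 1.19, 14.4 and 4.37 with both. The count of 0 in Kmt2a+/+ replicate 1 allows a level of up to 0.164 CPM, by counting error only. The single highest *Gli1* value was in Kmt2a+/LSL, and all genotypes overlapped. *Gli2* (ENSMUSG00000048402, chr1:118834132-119053619, minus strand), which encodes the main activator upstream of *Gli1*, was far more abundant, with 152, 809 and 629 normalized counts in the wild type and 515, 502 and 495 with the cassette alone. Cre alone gave 559, 621 and 570, and both together 438, 729 and 485. The mean was 504 with an SD of 10.1 (n = 3) for the cassette alone and 530 with an SD of 339 (n = 3) for the wild type, where replicate 1 was the lowest of all 12 libraries. Antisense and opposite-strand genes also overlap *Gli1*, and 5.30% of its 31-base words occur in other genes.

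**Figure D2:**
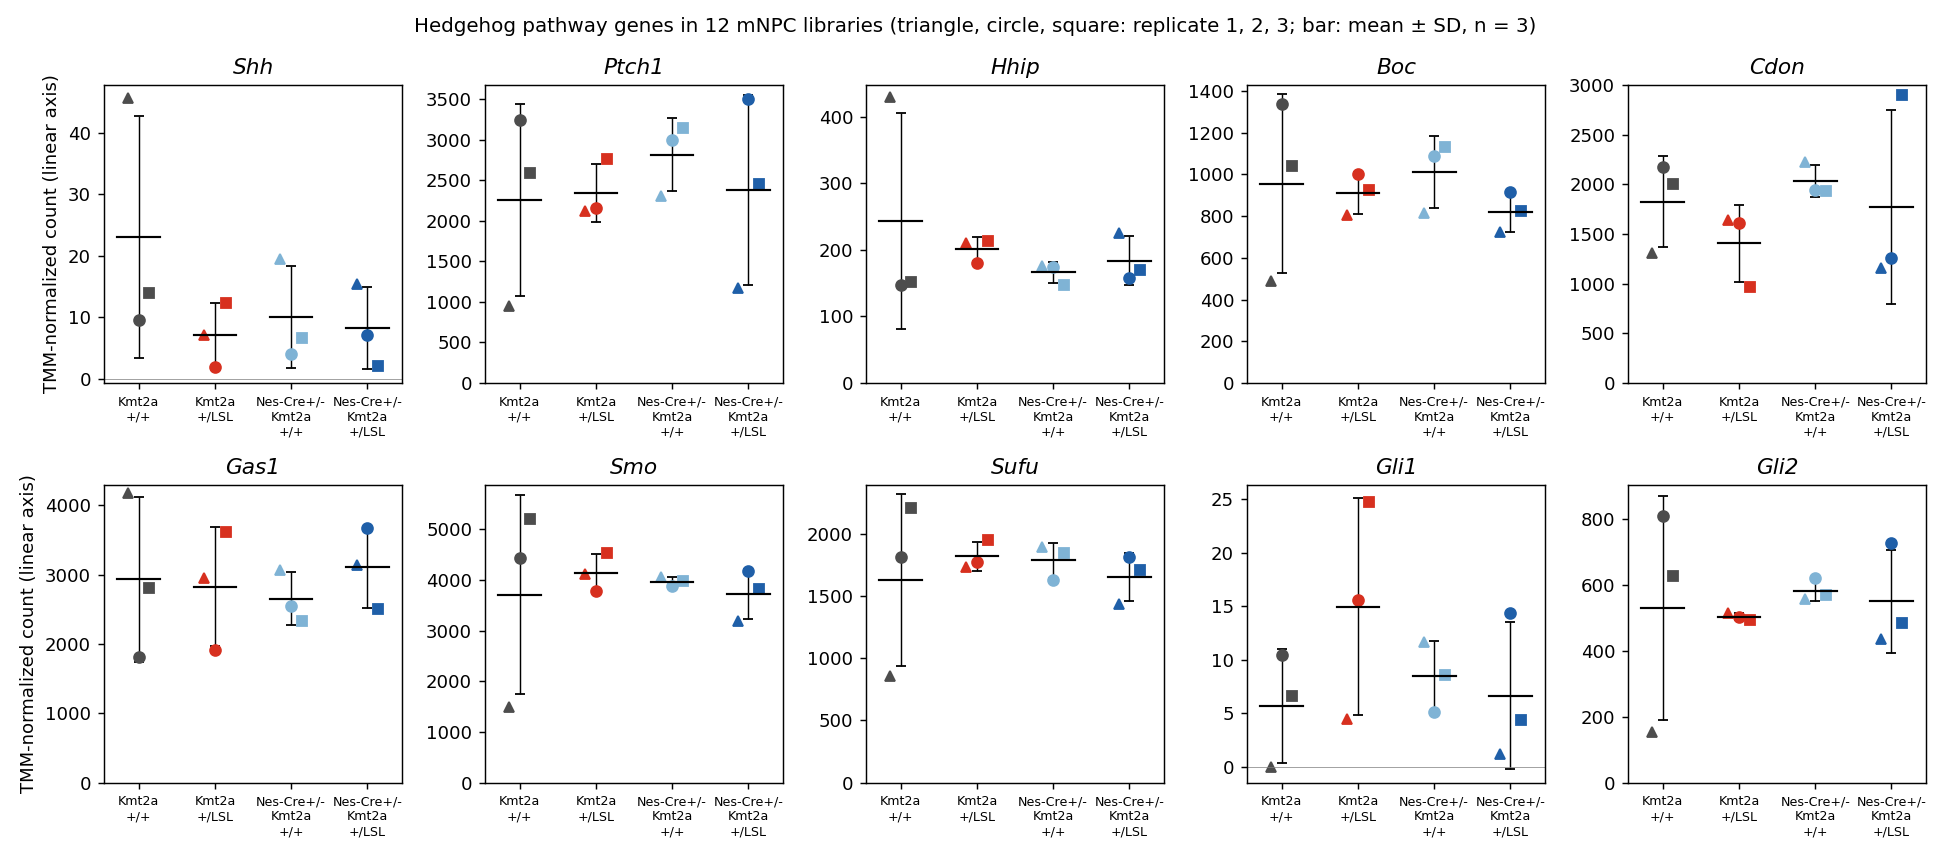
TMM-normalized counts of the 10 genes (linear axes from 0, 1 panel each) in the 4 genotypes, with triangles, circles and squares for replicates 1, 2 and 3 and bars for the mean ± SD (n = 3). Kmt2a+/+ replicate 1, the dark triangle, is the lowest point for *Ptch1*, *Boc*, *Smo*, *Sufu*, *Gli1* and *Gli2* and the highest for *Shh*, *Hhip* and *Gas1*.

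Most of the variation among these genes thus lay between replicates, and much of it in 1 library. Kmt2a+/+ replicate 1 was the lowest of the 12 for 6 of the 10 genes and the highest for 3, *Cdon* being the exception. The same library was the lowest for 34.1% of all genes tested and the highest for 30.0%, together 64.1%. Kmt2a+/+ replicate 3 came second, as the lowest or highest for 32.6%, and the remaining libraries ranged from 5.29% to 18.8%. In Nes-Cre+/- Kmt2a+/LSL replicate 1, *Ptch1*, *Boc*, *Smo*, *Sufu*, *Gli1* and *Gli2* stood next above the values of Kmt2a+/+ replicate 1, and *Hhip* next below. The share of all genes that stood so in that library was not counted, so this is not shown to be particular to the pathway. The part of these libraries, and that of the marker levels above, in the values of these genes was not tested.

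**Figure D3:**
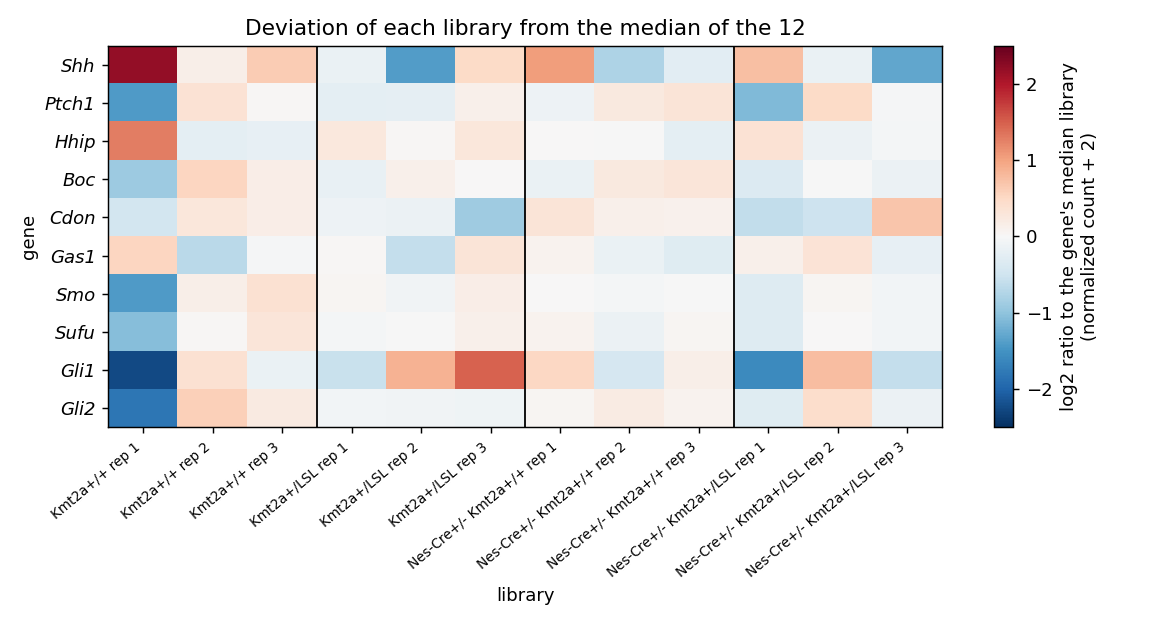
Deviation of each library (columns, by genotype) from the gene's median library (rows, 10 genes), as log2 of the ratio of normalized counts with 2 added to each. The strongest colours lie in Kmt2a+/+ replicate 1, and a fainter version of them in Nes-Cre+/- Kmt2a+/LSL replicate 1, where *Hhip* is high and *Ptch1* and *Gli1* are low.

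In Kmt2a+/LSL against Kmt2a+/+, the comparison of 1 interrupted allele with the wild type, none of the 10 genes passed the test. edgeR called 0 of the 10 at an adjusted p under 0.05, as it called 0% of all genes tested, and 0 of the 10 had an unadjusted p under 0.05, against 1.79% of all genes. The 3 libraries of a genotype overlapped with those of the other for all 10 genes, while they were separate for 4.05% of all genes. *Shh* had a log2 fold change of -1.65 (SE 0.90, 95% interval -3.62 to 0.33) and *Gli1* one of 1.31 (SE 0.99, 95% interval -0.86 to 3.47), intervals that reach past 0 and remain wide at these counts. Leaving out single libraries moved *Shh* from -2.27 (without Kmt2a+/LSL replicate 3) to -0.72 (without Kmt2a+/+ replicate 1), and *Gli1* from 0.74 (without Kmt2a+/LSL replicate 3) to 1.98 (without Kmt2a+/+ replicate 2). The fold changes of the other 8 genes were smaller. *Cdon* had the largest of these, at -0.38 (SE 0.35, 95% interval -1.15 to 0.39), and stayed below 0 with any single library left out (-0.57 to -0.17). The others were 0.05 (SE 0.43) for *Ptch1*, -0.27 (SE 0.38) for *Hhip*, 0.16 (SE 0.34) for *Smo*, -0.07 (SE 0.44) for *Gli2*, -0.07 (SE 0.30) for *Boc* and -0.05 (SE 0.31) for *Gas1*. *Sufu*, at 0.16 (SE 0.28), had the narrowest interval, which went from -0.45 to 0.76. Median log2 fold changes were -0.06 over the 10 genes and 0.00 over all genes tested.

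In Nes-Cre+/- Kmt2a+/LSL against Kmt2a+/LSL, where Cre can remove the cassette, again none of the 10 passed. edgeR called 0 of the 10, with 0% of all genes called, 0 of the 10 had an unadjusted p under 0.05 against 1.61% of all genes, and 0 of the 10 had separate libraries against 7.1% of all genes. *Gli1* had a log2 fold change of -1.11 (SE 0.98, 95% interval -3.26 to 1.04) and *Shh* one of 0.20 (SE 0.92). The *Gli1* value ranged from -2.35 without Nes-Cre+/- Kmt2a+/LSL replicate 2 to -0.54 without Kmt2a+/LSL replicate 3, and that of *Shh* turned, from -0.57 to 0.82 over the single libraries left out. *Cdon* at 0.33 (SE 0.35), *Gas1* at 0.14 (SE 0.31), *Gli2* at 0.13 (SE 0.44) and *Ptch1* at 0.02 (SE 0.43) were positive. *Smo* at -0.15 (SE 0.34), *Boc* at -0.15 (SE 0.30), *Sufu* at -0.14 (SE 0.28) and *Hhip* at -0.13 (SE 0.38) were negative. Over single libraries left out the positive values turned, with *Cdon* at -0.22 to 0.56, *Gas1* at -0.07 to 0.35, *Gli2* at -0.13 to 0.27 and *Ptch1* at -0.37 to 0.35. The negative ones kept their sign. This comparison and the one before share the Kmt2a+/LSL libraries, and a value above 0 in one and below 0 in the other is partly set by those libraries.

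Nestin-Cre alone, as Nes-Cre+/- Kmt2a+/+ against Kmt2a+/+, gave 0 of the 10 called, 0 of the 10 at an unadjusted p under 0.05 (1.4% of all genes), and 0 of the 10 with separate libraries (4.35% of all genes). In this test and in each of those that follow in this paragraph, edgeR called 0% of all genes. *Shh* had a log2 fold change of -1.15 (SE 0.88), *Hhip* one of -0.55 (SE 0.38) and *Gli1* one of 0.50 (SE 1.00). The *Shh* value ranged from -2.04 without Nes-Cre+/- Kmt2a+/+ replicate 1 to -0.22 (SE 0.88) without Kmt2a+/+ replicate 1. Without the latter library *Hhip* turned to 0.15 (SE 0.21) and *Gli1* to -0.003 (SE 0.90). The cassette in the presence of Cre, as Nes-Cre+/- Kmt2a+/LSL against Nes-Cre+/- Kmt2a+/+, likewise gave 0 of the 10 called, 0 of the 10 at an unadjusted p under 0.05 (1.11% of all genes) and 0 of the 10 with separate libraries (6.68% of all genes). There *Boc* was at -0.30 (SE 0.30), *Gas1* at 0.23 (SE 0.31) and *Gli1* at -0.31 (SE 1.00). The difference between the effects of the cassette with and without Cre, tested as an interaction, called 0 of the 10, and 0 of the 10 had an unadjusted p under 0.05 against 1.73% of all genes. A test for any difference among the 4 genotypes called 0 of the 10, with 0 of the 10 at an unadjusted p under 0.05 against 1.15% of all genes. The lowest unadjusted p in that test was 0.259, for *Shh*. A p that misses the threshold does not show that levels were equal, and the intervals of *Shh* and *Gli1* leave room for several-fold differences.

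**Figure D4:**
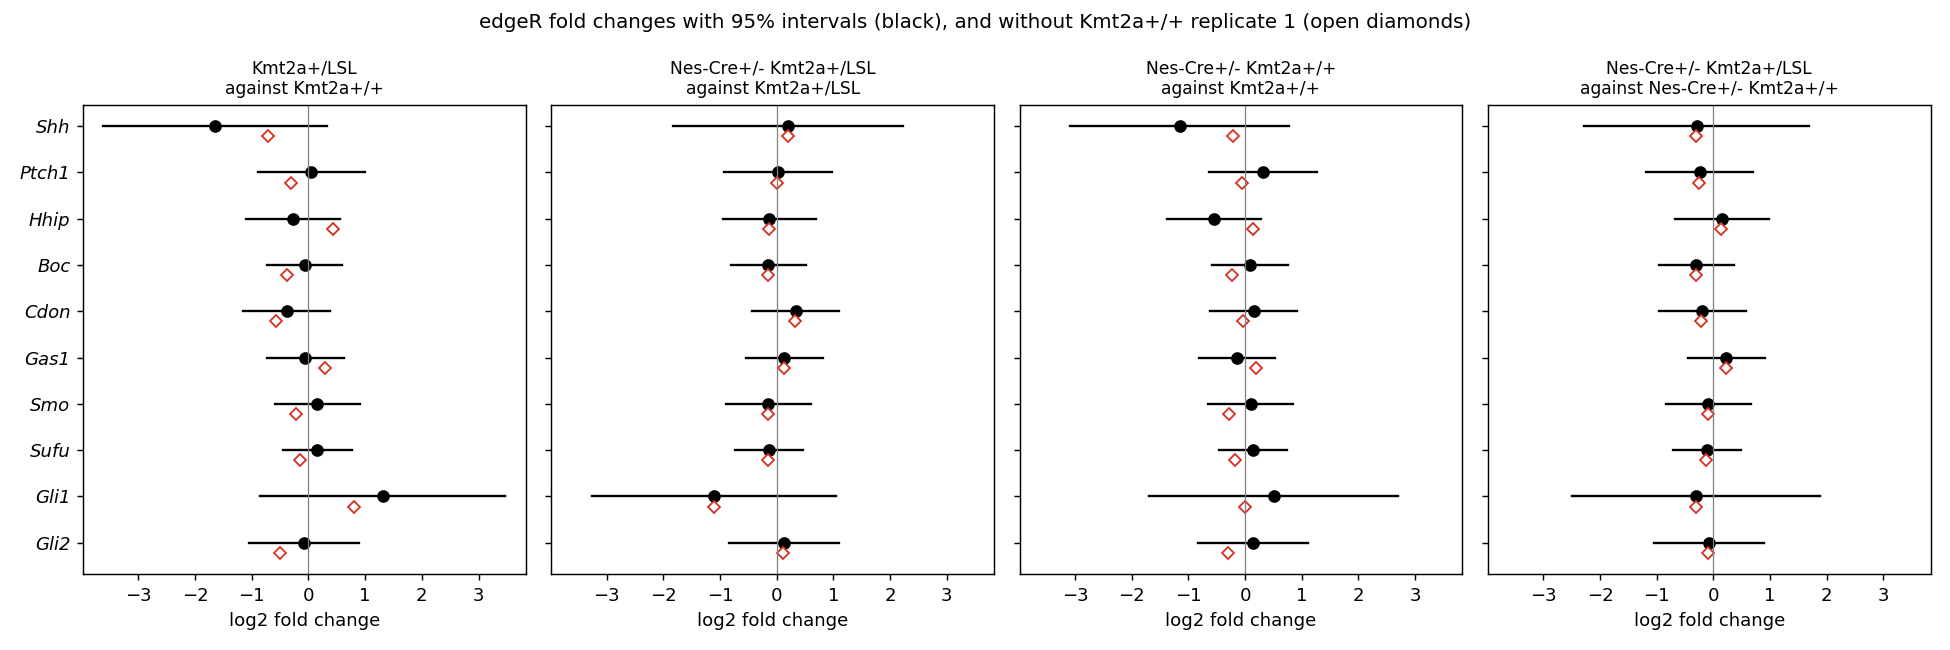
Log2 fold changes of the 10 genes in the 4 comparisons between genotypes. Black points and lines show the edgeR estimate and an approximate 95% interval back-calculated from its test. Open diamonds show the estimate without Kmt2a+/+ replicate 1. All intervals cover 0, and in the comparisons with Kmt2a+/+ the diamonds of *Ptch1*, *Hhip*, *Gas1*, *Smo* and *Sufu* lie on the other side of 0 from the points.

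Leaving out Kmt2a+/+ replicate 1 turned the sign of several fold changes and narrowed their errors, without a call. In Kmt2a+/LSL against the remaining 2 Kmt2a+/+ libraries, *Hhip* went from -0.27 to 0.43 (SE 0.21), *Ptch1* from 0.05 to -0.31 (SE 0.33), *Smo* from 0.16 to -0.22 (SE 0.13), *Sufu* from 0.16 to -0.15 (SE 0.14) and *Gas1* from -0.05 to 0.29 (SE 0.27). *Gli2* went from -0.07 to -0.51 (SE 0.20, unadjusted p = 0.026 and adjusted p = 0.551 in edgeR), the only 1 of the 10 with an unadjusted p under 0.05, against 8.95% of all genes tested there, and *Boc* from -0.07 to -0.38 (SE 0.17, unadjusted p = 0.051). *Shh* shrank from -1.65 to -0.72 (SE 0.89) and *Gli1* from 1.31 to 0.80 (SE 0.87). With Nes-Cre+/- Kmt2a+/LSL replicate 1 left out as well, *Boc*, *Cdon* and *Gli2* were lower and *Hhip* higher in all 3 Kmt2a+/LSL libraries than in both remaining Kmt2a+/+ libraries, which is 4 of the 10 genes, against 29% of the 16858 genes tested in this set. The unadjusted p was then 0.016 for *Gli2*, 0.033 for *Hhip* and 0.044 for *Boc*, and the edgeR adjusted p 0.257, 0.305 and 0.327. These were 3 of the 10 genes, against 14.6% of all genes with an unadjusted p under 0.05. These exclusions were chosen after seeing the data. In the same set *Hhip* lay lower in Nes-Cre+/- Kmt2a+/LSL than in Kmt2a+/LSL without overlap, 1 of the 10 against 18.8% of all genes. *Smo* and *Gli2* lay lower in Nes-Cre+/- Kmt2a+/+ than in Kmt2a+/+ without overlap, 2 of the 10 against 29.6% of all genes. The *Smo* difference was -0.29 (SE 0.11) with an unadjusted p of 0.028 and an adjusted p of 0.414 in edgeR, 1 of the 10 under 0.05 against 11.2% of all genes. In the interaction *Gli2* was at 0.56 (SE 0.25) with an unadjusted p of 0.0495 and an adjusted p of 0.436 in edgeR, 1 of the 10 against 11.4% of all genes.

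Whether the targets *Gli1*, *Ptch1* and *Hhip* varied together over libraries, and *Gli1* with the coreceptors, was examined next. Relations of log2 CPM were computed for 6 pairs over the 12 libraries, with permutation tests adjusted over the 6. *Ptch1* and *Hhip* went in opposite directions (Pearson's r = -0.86, permutation p = 0.0003, adjusted p = 0.0020, Spearman's rho = -0.80, permutation p = 0.0031). *Gli1* rose with *Ptch1* (r = 0.79, permutation p = 0.0035, adjusted p = 0.0105) and with *Boc* (r = 0.67, adjusted p = 0.036 by permutation) and fell with *Hhip* (r = -0.65, adjusted p = 0.037 by permutation), but the rank correlations of these 3 pairs, at 0.55, 0.49 and -0.28, had adjusted permutation p-values of 0.21, 0.22 and 0.57. *Gli1* had r = -0.30 and rho = -0.16 with *Gas1* (adjusted permutation p = 0.41 and 0.67) and r = -0.02 and rho = -0.14 with *Cdon* (adjusted permutation p = 0.95 and 0.67). Without the 2 libraries farthest from the median, the first replicates of Kmt2a+/+ and Nes-Cre+/- Kmt2a+/LSL in each pair, r became 0.19 for *Gli1* with *Ptch1*, 0.16 with *Hhip* and 0.09 with *Boc*, so these relations rest on those libraries. The value for *Ptch1* with *Hhip* was then -0.59, and its adjusted permutation p was no longer under 0.05. That for *Gli1* with *Cdon* was -0.71. How often pairs of other genes reach such values over these libraries was not tested. Within genotypes, as deviations from the genotype means, r was -0.87 for *Ptch1* with *Hhip* and 0.84 for *Gli1* with *Ptch1*, values that hold the same libraries. As a description, the genes whose log2 CPM was most like that of *Gli1* among 11677 genes with a mean count of at least 50 were *Pqbp1* (r = 0.91), *Mccc1* (r = 0.90) and *Pabpc1l2b-ps* (r = 0.89).

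The rest of the pathway was read from 5 lists of other genes, of which 50 genes were tested: 7 for ligands and their release, 9 for receptors and membrane regulators, 13 for cytoplasmic transduction and GLI processing, 10 for the primary cilium, in which the vertebrate pathway signals, and 11 for target genes. edgeR called 0 of the 50 in any of the comparisons, as it called 0% of all genes tested. The median log2 fold change over the 50 was -0.03 in Kmt2a+/LSL against Kmt2a+/+, -0.01 in Nes-Cre+/- Kmt2a+/LSL against Kmt2a+/LSL, 0.04 in Nes-Cre+/- Kmt2a+/+ against Kmt2a+/+ and -0.02 in Nes-Cre+/- Kmt2a+/LSL against Nes-Cre+/- Kmt2a+/+, where all genes tested had medians between 0.00 and 0.01. The 11 target genes had a median of -0.11 with 2 above 0 in the first of these and of 0.24 with 9 above 0 in the second, which share the Kmt2a+/LSL libraries. These medians were the values of *Nkx6-1* and *Foxf1*, near the floor at up to 6.55 and 8.55 normalized counts, as was *Nkx2-1* at up to 6.82. The cilium list had 6 and 2 of 10 above 0, ligands 5 and 4 of 7, receptors 4 and 3 of 9, and transduction 7 and 5 of 13. Of the 17076 genes tested, 8562 and 8604 were above 0 in these comparisons. *Gli3*, the main repressor of the family, had 847 to 1347 normalized counts and a log2 fold change of -0.25 (SE 0.19) in Kmt2a+/LSL against Kmt2a+/+. *Kif7*, a ciliary kinesin that regulates GLI processing, had a log2 fold change of 0.02 (SE 0.39). Of the other ligands, *Dhh* had 0 to 34.3 normalized counts and *Ihh* 0 to 4.93.

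*Gpc3*, a glypican that binds Hedgehog ligand and limits signalling, was the only one of the 50 with an unadjusted p under 0.05 in edgeR with all 12 libraries, in Nes-Cre+/- Kmt2a+/LSL against Kmt2a+/LSL, where 1.61% of all genes had one and the libraries of 7.1% of all genes were separate. Its normalized counts were 69.1, 50.6 and 99.1 with the cassette alone and 155, 127 and 105 with cassette and Cre, which do not overlap. They were 115, 49.5 and 87.2 in the wild type and 99.3, 88.1 and 78.0 with Cre alone. The log2 fold change between the first 2 was 0.82 (SE 0.35), with an unadjusted p of 0.040 and an edgeR adjusted p of 1.00. In the same comparison *Nkx2-2*, a ventral patterning transcription factor and Hedgehog target, was at 0.52 (SE 0.26, unadjusted p = 0.069 in edgeR) and *Sfrp1*, a secreted Wnt antagonist, at 0.29 (SE 0.20). *Gpc3* and *Nkx2-2* were the 2 of the 50 that an empirical null fitted to the DESeq2 z-scores called, at adjusted p of 0.00031 and 0.0021, a setting that called 945 of 17076 genes there. *Sfrp1* had the lowest p in Kmt2a+/LSL against Kmt2a+/+, at -0.41 (SE 0.20, unadjusted p = 0.067 in edgeR), followed by *Mycn*, a proliferation-promoting target, at -1.39 (SE 0.96, -1.91 to 0.15 over single libraries left out) and the ciliary gene *Bbs1* at 0.25 (SE 0.18). In Nes-Cre+/- Kmt2a+/+ against Kmt2a+/+ the ubiquitin ligase scaffold *Cul3* was at -0.52 (SE 0.39, -0.83 to 0.26 over single libraries left out) and the protein kinase A subunit *Prkaca* at 0.35 (SE 0.29), both among the 3 lowest p-values. In Nes-Cre+/- Kmt2a+/LSL against Nes-Cre+/- Kmt2a+/+ the lowest p-values were those of *Lrp2*, a membrane receptor that takes up SHH, at -0.47 (SE 0.25), *Gpc3* at 0.54 (SE 0.35) and the kinase *Ulk3* at -0.32 (SE 0.26), and in the interaction those of *Gpc3* at 0.74 (SE 0.50), the kinase *Stk36* at -0.60 (SE 0.41) and *Gsk3b*, which phosphorylates GLI proteins, at 0.51 (SE 0.35). None of these passed adjustment in edgeR. Without Kmt2a+/+ replicate 1, 6 of the other pathway genes had an unadjusted p under 0.05 in Kmt2a+/LSL against Kmt2a+/+, beside 8.95% of all genes. Without Nes-Cre+/- Kmt2a+/LSL replicate 1 as well, 11 did in that comparison, 6 in Nes-Cre+/- Kmt2a+/+ against Kmt2a+/+ and 5 in the interaction, beside 14.6%, 11.2% and 11.4% of all genes, and edgeR called 0 of them.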

How the data were processed

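Poly(A) RNA of 12 mNPC cultures, 3 for each of 4 genotypes, was sequenced. The authors deposited an estimated count for each gene, written as a whole number and not scaled to depth. They pseudoaligned reads to the mm10 (GRCm38) transcriptome with kallisto 0.48.0, per the labels and the submitters' processing notes, and summed transcripts to genes with tximport. The estimated counts were used unchanged. Symbols were matched through the GRCm38 annotation for 18735 of 18911 genes. All 12 columns were used, with groups from the sample labels.

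The 17076 genes with over 10 counts summed over libraries, and a count in 2 libraries or more, were normalized with TMM and tested with the quasi-likelihood test of edgeR 4.0.16 in R 4.3.3, with genotype as the only term and all 12 libraries in 1 fit. P-values are two-sided and were adjusted with the Benjamini-Hochberg method over all genes tested, with calls at 0.05. Fold changes are those edgeR reports with its default prior count. Correlations used log2 CPM with a prior count of 2 and 100000 resamples. An exact two-sided permutation of 3 libraries against 3 cannot give a p below 0.1 and was not used for calls. Totals of 18280008 to 28596919 counts set a floor of 3 counts at 0.105 to 0.164 CPM, which covers counting error only. The common biological coefficient of variation was 0.368.

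The 10 genes and the lists were chosen with earlier results of these data known. Named from the lists were *Gli3*, *Kif7* and the 3 genes with the lowest p of each comparison, except that 1 gene the rule names is not reported here. Alternatives were DESeq2 1.42.0 (Wald test and size factors), an empirical null on its z-scores fitted to the central 75%, limma 3.58.1 (voom with quality weights), other filters, a replicate block, only the compared genotypes, an adjusted p under 0.1 and each library left out.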

Additional observations from a re-analysis of the deposited data

How the results depend on the processing

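Under every alternative run, 0 of the 10 genes were called in any comparison, and the lowest adjusted p of a member over all of them was 0.192, for *Gli1* in Nes-Cre+/- Kmt2a+/LSL against Kmt2a+/LSL under the empirical null. Over all genes and 12 libraries, edgeR called 0, DESeq2's Wald test 3 to 10 by comparison, its empirical null 7 to 945 and limma-voom 0 to 3 (3 in the test for any difference). Among the 50 other pathway genes the count of 0 became 2 under the empirical null for Nes-Cre+/- Kmt2a+/LSL against Kmt2a+/LSL and stayed 0 otherwise. The signs of the fold changes were less stable, and 111 of 1080 recomputed member values had the other sign. In what follows, cassette stands for Kmt2a+/LSL against Kmt2a+/+, removal for Nes-Cre+/- Kmt2a+/LSL against Kmt2a+/LSL, Cre for Nes-Cre+/- Kmt2a+/+ against Kmt2a+/+, and cassette-with-Cre for Nes-Cre+/- Kmt2a+/LSL against Nes-Cre+/- Kmt2a+/+. limma-voom, which gave Kmt2a+/+ replicate 1 a weight of 0.0537, turned the log2 fold change in the cassette comparison for *Ptch1* (-0.33), *Hhip* (0.40), *Gas1* (0.35), *Smo* (-0.14), *Sufu* (-0.068), *Kif7* (-0.32), in the Cre comparison for *Hhip* (0.11), *Boc* (-0.19), *Cdon* (-0.077), *Gas1* (0.25), *Smo* (-0.20), *Sufu* (-0.13), *Gli1* (-0.25), *Gli2* (-0.27), *Cul3* (0.19), in the cassette-with-Cre comparison for *Gli1* (0.025) and in the interaction comparison for *Ptch1* (0.17), *Hhip* (-0.36), *Boc* (0.10), *Gas1* (-0.045), *Smo* (0.12), *Sufu* (0.045), *Gli2* (0.50). Leaving out Kmt2a+/+ replicate 1 and Nes-Cre+/- Kmt2a+/LSL replicate 1 together turned it in the cassette comparison for *Ptch1* (-0.31), *Hhip* (0.43), *Gas1* (0.29), *Smo* (-0.22), *Sufu* (-0.15), *Kif7* (-0.37), in the removal comparison for *Shh* (-0.58), in the Cre comparison for *Ptch1* (-0.054), *Hhip* (0.15), *Boc* (-0.23), *Cdon* (-0.041), *Gas1* (0.19), *Smo* (-0.29), *Sufu* (-0.18), *Gli1* (-0.0023), *Gli2* (-0.31), *Cul3* (0.26), in the cassette-with-Cre comparison for *Ptch1* (0.071), *Hhip* (-0.040), *Cdon* (0.0078), *Gli1* (0.15), *Gli2* (0.046) and in the interaction comparison for *Shh* (-0.36), *Ptch1* (0.38), *Hhip* (-0.47), *Boc* (0.15), *Gas1* (-0.079), *Smo* (0.22), *Sufu* (0.11), *Gli2* (0.56). Without both, 4, 1 and 2 members had separate libraries in the cassette, removal and Cre comparisons, against 29%, 18.8% and 29.6% of all genes, and the correlations of *Gli1* became 0.19 with *Ptch1*, 0.16 with *Hhip*, 0.21 with *Gas1* and 0.090 with *Boc*, and that of *Ptch1* with *Hhip* -0.59. The interaction of *Gli2* was 0.027 with DESeq2 size factors, 0.026 with its Wald test and empirical null, and 0.0081 with at least 10 counts in every library. A prior count of 0.5 gave *Gli1* with *Cdon* r = 0.082. The causes of these turns were not tested.

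Leaving out single libraries gave the following ranges for the fold changes that turned. For the cassette comparison they were *Ptch1* -0.31 to 0.41, *Hhip* -0.53 to 0.43, *Gas1* -0.30 to 0.29, *Smo* -0.22 to 0.48, *Sufu* -0.15 to 0.44, *Kif7* -0.37 to 0.32, *Boc* -0.38 to 0.25, *Gli2* -0.51 to 0.36, *Mycn* -1.91 to 0.15. In the removal comparison the ranges were *Ptch1* -0.37 to 0.35, *Shh* -0.57 to 0.82, *Gas1* -0.072 to 0.35, *Gli2* -0.13 to 0.27, *Cdon* -0.22 to 0.56. For the Cre comparison they were *Ptch1* -0.054 to 0.67, *Hhip* -0.80 to 0.15, *Boc* -0.24 to 0.40, *Cdon* -0.041 to 0.30, *Gas1* -0.40 to 0.19, *Smo* -0.29 to 0.42, *Sufu* -0.18 to 0.42, *Gli1* -0.0032 to 1.18, *Gli2* -0.31 to 0.57, *Cul3* -0.83 to 0.26. In the cassette-with-Cre comparison the ranges were *Shh* -1.06 to 0.60, *Ptch1* -0.63 to 0.082, *Hhip* -0.025 to 0.25, *Cdon* -0.75 to 0.029, *Smo* -0.18 to 0.011, *Gli1* -1.55 to 0.16, *Gli2* -0.34 to 0.058. For the interaction comparison they were *Ptch1* -0.69 to 0.063, *Hhip* -0.29 to 0.67, *Boc* -0.55 to 0.074, *Gas1* -0.064 to 0.53, *Smo* -0.57 to 0.12, *Sufu* -0.56 to 0.025, *Gli2* -0.44 to 0.42, *Cdon* -0.37 to 0.41. Leaving out Kmt2a+/+ replicate 1 turned 21 member values, and 9 turned without Nes-Cre+/- Kmt2a+/LSL replicate 1. The correlations ranged from 0.62 to 0.84 for *Gli1* with *Ptch1*, -0.81 to -0.25 with *Hhip*, -0.55 to 0.019 with *Gas1*, 0.39 to 0.75 with *Boc* and -0.24 to 0.33 with *Cdon*.

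The labels do not say whether the replicate numbers pair the libraries, and the values leave this unsettled. Deviations of same-numbered libraries correlated at 0.0844 on average over 18 pairs (-0.0717 to 0.416). Those of different number correlated at -0.0407 on average over 36 pairs. Of the 12 libraries, 6 correlated best with their own number. With the replicate block, 0 members were called, and the fold change turned in the cassette comparison for *Boc* (0.0086), *Gli2* (0.087) and in the removal comparison for *Ptch1* (-0.13). *Shh* and *Gli1* had 0 to 32 deposited counts per library, and how far depth limits what can be seen for them was not tested.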
